A study of Homo sapiens with 16 samples.

Results

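The RNA polymerase II transcription machinery was examined as a set of 78 genes, chosen by their symbols from the 28277 symbols of each expression table: the polymerase subunits POLR2A to POLR2L, the Mediator genes (MED), the TBP-associated factors (TAF) and the general transcription factors (GTF2A to GTF2H). By complex these were 12 polymerase subunits, 30 Mediator genes, 17 TFIID genes with paralogs, 7 other TAFs and 12 general factor genes. The naming rule is wider than TFIID itself, since TAF1A, TAF1B, TAF1C and TAF1D belong to SL1 of RNA polymerase I, TAF5L and TAF6L belong to the SAGA coactivator, and TAF15 is an RNA-binding protein of the FET family. All 78 symbols were present in both tables.

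Messenger RNA had been measured in JJN3 and INA6, established human multiple myeloma lines, the cancer of antibody-secreting plasma cells. In each line a catalytically inactive Cas9 joined to a repressor domain (CRISPR interference, written dCas9-CRAB in the labels) was directed at KANSL2 or carried a non-targeting guide, so the controls carried the same repressor. The 4 groups were JJN3 with KANSL2 knockdown, JJN3 with the non-targeting guide, INA6 with KANSL2 knockdown and INA6 with the non-targeting guide, with 3 libraries each and all labelled untreated. Guide sequences, whether the lines were pools or clones, the time between transduction and RNA harvest, and whether replicates were separate cultures are not given in the sources used here. KANSL2 is a subunit of the non-specific lethal (NSL) complex, which carries a histone acetyltransferase to the promoters of widely expressed genes.

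RNA polymerase II makes all messenger RNA. At a promoter, TFIID and TFIIA mark the start site, TFIIB and TFIIF bring in the polymerase, TFIIE and TFIIH open the DNA, and Mediator carries signals from DNA-bound activators to the polymerase through its head, middle and tail. Plasma cells devote much of their messenger RNA to immunoglobulin, and the subunit genes of these complexes are expressed in nearly all cell types.

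The deposited values were rlog values, which are log2 values that the authors had scaled within a line and shrunk towards each gene's mean. Differences are given as knockdown minus control on this log2 scale with their standard error (SE) and n = 3 libraries per arm, and a gene was called changed where limma's adjusted p was below 0.05 over all genes tested in that line. Depth is unknown because the tables hold no counts, the rlog scale understates changes of genes with few reads, and values were not compared between genes or between lines. KANSL2 itself stood at 6.00, 5.98 and 6.06 in the JJN3 knockdown libraries, against 7.25, 7.24 and 7.19 in the JJN3 controls. In INA6 KANSL2 stood at 7.71, 7.60 and 7.76 in knockdown libraries, against 8.06, 8.02 and 8.16 in controls. Its groups did not overlap in either line, and it fell by 1.21 ± 0.0559 in JJN3 and by 0.39 ± 0.0625 in INA6. All 9 plasma cell markers fixed for the check (such as SDC1, CD38 and TNFRSF17) passed the low-value filter in both lines. In JJN3, 5 of the 9 rose and 1 fell, and their summed level on the log2 scale lay between 16.6 and 16.7 in knockdown libraries, against 16.5 in all controls. In INA6, 2 rose and 6 fell, and the sum lay between 16.2 and 16.3 in knockdown libraries, against 16.7 in controls. Of 5 T and NK cell markers 1 was tested in JJN3, where CD3E fell by 0.18 (lost under quantile normalisation (−0.12, adjusted p = 0.0837) and without control library 3 (−0.10, adjusted p = 0.142)) and CD3D and CD3G were at 0, and 2 were tested in INA6, where limma called 0 (0 at an unadjusted p below 0.05). Of 5 myeloid markers 1 was tested in each line, where limma called 0 (at an unadjusted p below 0.05, 0 in JJN3 and 1 in INA6), with LYZ and FCGR3A at 0 in JJN3 and FCGR3A at 0 in INA6. None of the 5 stromal markers was tested in either line, and PDGFRB and DCN were at 0 in JJN3. The part of these marker changes in the results below was not tested. In bulk RNA a change in the share of cells that express a gene and a change in RNA per cell cannot be told apart, nor is a change in the total RNA of a cell visible.

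The promoters of 5 genes are shown because these genes carry the main contrasts described below: POLR2A, POLR2E and POLR2L rose in both lines, MED18 fell in both, and MED9 moved in opposite directions. Each is the 250 bases before the annotated start, 5′ to 3′ on the gene's strand, from RefSeq on GRCh38.p14, the same build as the submitters' hg38. They lie at chr17:7484116-7484365 (POLR2A, plus strand), chr19:1095376-1095625 (POLR2E, minus strand), chr11:842530-842779 (POLR2L, minus strand), chr1:28328790-28329039 (MED18, plus strand) and chr17:17476750-17476999 (MED9, plus strand). Capitals mark every match to 7 motifs searched on both strands, and no pair of the 9 matches shared a base.
POLR2A: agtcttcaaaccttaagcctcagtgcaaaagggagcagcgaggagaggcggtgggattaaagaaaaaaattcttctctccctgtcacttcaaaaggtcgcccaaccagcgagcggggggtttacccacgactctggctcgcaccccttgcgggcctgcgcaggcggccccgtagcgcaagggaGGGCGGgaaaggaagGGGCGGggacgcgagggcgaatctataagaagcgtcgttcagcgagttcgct
POLR2E: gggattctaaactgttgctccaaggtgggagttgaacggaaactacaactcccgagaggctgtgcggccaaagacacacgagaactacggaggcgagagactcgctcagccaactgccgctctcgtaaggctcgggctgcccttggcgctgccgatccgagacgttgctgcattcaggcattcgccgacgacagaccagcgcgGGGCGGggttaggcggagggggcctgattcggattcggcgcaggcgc
POLR2L: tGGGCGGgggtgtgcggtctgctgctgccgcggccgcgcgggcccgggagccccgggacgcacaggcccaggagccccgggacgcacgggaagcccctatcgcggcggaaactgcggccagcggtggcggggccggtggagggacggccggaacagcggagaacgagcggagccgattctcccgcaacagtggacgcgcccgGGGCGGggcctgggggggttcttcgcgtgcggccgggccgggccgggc
MED18: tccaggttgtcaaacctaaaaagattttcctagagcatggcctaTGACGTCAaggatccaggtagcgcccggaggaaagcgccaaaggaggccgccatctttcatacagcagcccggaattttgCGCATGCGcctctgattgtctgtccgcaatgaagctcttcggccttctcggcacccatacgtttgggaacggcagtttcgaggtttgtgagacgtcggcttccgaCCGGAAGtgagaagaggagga
MED9: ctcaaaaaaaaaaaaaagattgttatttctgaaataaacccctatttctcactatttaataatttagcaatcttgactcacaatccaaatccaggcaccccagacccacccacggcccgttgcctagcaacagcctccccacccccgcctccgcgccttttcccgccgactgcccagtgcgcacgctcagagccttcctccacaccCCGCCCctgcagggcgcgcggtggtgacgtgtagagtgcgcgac
The 3 polymerase promoters held the GC box (GGGCGG) and no other searched motif, with its first base 67 and 52 bases before the start in POLR2A, 47 in POLR2E, and 249 and 48 in POLR2L. The MED9 promoter held 1 GC box on the opposite strand, at 44 bases. The MED18 promoter held the cAMP response element (TGACGTCA) at 206 bases, the centre of the NRF1 motif (CGCATGCG) at 126 and the ETS motif (CCGGAAG) at 21 bases before the start. Of the 78 genes 60 matched the promoter table, with 72 promoters in all, against 34943 promoters of all genes. The ETS motif was present in 29.2% of the set's promoters and 8.48% of all promoters. The NRF1 motif centre was present in 5.56% (4 promoters, 2 of them of POLR2F) and 1.71%. The GC box was found in 54.2% and 42.5%, the E-box (CACGTG) in 12.5% and 6.32%, the cAMP response element in 4.17% and 1.63%, the CCAAT box (CCAAT) in 31.9% and 32.0%, and the TATA box (TATAAA) in 4.17% and 10.8%. No comparison was made with promoters of genes expressed at similar levels. These matches describe letters in a window and not sites used by a factor.

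Of the 78 genes, 72 were tested in JJN3 and 71 in INA6. The 6 genes below the filter (a mean rlog value of at least 3) in both lines were MED31 of the Mediator middle, TAF9 and TAF7L of TFIID, TAF15, and GTF2H2 and GTF2H4 of TFIIH, and in INA6 also MED12L. GTF2H4 was listed at 0 in both lines, as were GTF2H2 in INA6 and TAF15 and TAF7L in JJN3. The other mean levels were 2.30 in JJN3 and 1.69 in INA6 for MED31, −1.49 in both for TAF9, −0.32 in JJN3 for GTF2H2, −1.49 in INA6 for TAF15, 2.75 in INA6 for TAF7L and 1.29 in INA6 for MED12L. AK6, which shares its locus with TAF9, was at 0 in both lines, as were the near-identical copies GTF2H2B and GTF2H2C. Subunits such as GTF2H4 are needed by all cells, so a low value here does not show that a gene was silent.

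In JJN3, 17 of 72 tested genes rose and 17 fell on KANSL2 knockdown (47.2% called, against 51.0% of all 12282 genes tested, 25.5% in each direction). In INA6, 24 of 71 rose and 3 fell (38.0% called, against 48.6% of all 12511 genes, 24.7% higher and 24.0% lower). The median difference of the set was −0.0050 in JJN3, against 0.0010 over all genes, and 0.07 in INA6, against 0.00094 over all genes. The 2 arms did not overlap for 41 of the 72 genes in JJN3 (background 56.1%) and for 35 of the 71 in INA6 (background 55.2%). Called differences were small, with a median size of 0.21 in each line and largest values of 0.49 in JJN3 and 0.52 in INA6. With the median gene of every library set equal (median centring), the set split into 22 higher and 13 lower in JJN3 and into 31 higher and 2 lower in INA6. The split of all genes was then 3768 higher and 2571 lower in JJN3 (59.4% of calls higher, against 62.9% for the set), and 3904 higher and 2400 lower in INA6 (61.9%, against 93.9% for the set). The plot by subunit group shows where the rises and falls were placed.

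**Figure D1:**
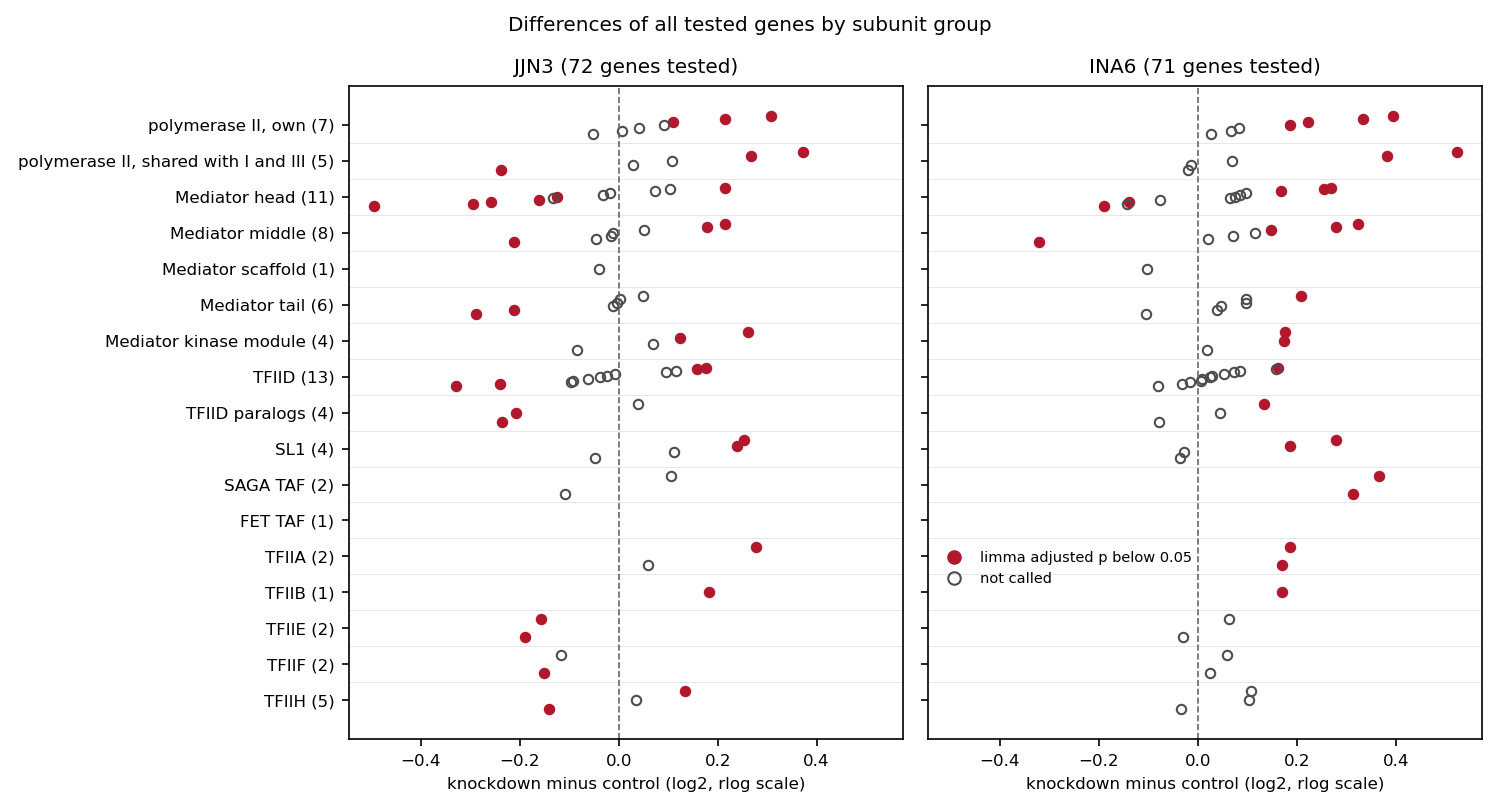
Difference between knockdown and control on the rlog log2 scale (x axis) for every tested gene, by subunit group (y axis, number of genes in brackets), in JJN3 (left, 72 genes) and INA6 (right, 71 genes). Filled points are genes with limma adjusted p below 0.05: in JJN3 the 17 rises and 17 falls lie on both sides of 0 with 5 of the falls in the Mediator head, and in INA6 24 of the 27 called genes lie to the right of 0.

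Among the called polymerase subunit genes rises outnumbered falls. Of the 12 genes, 5 rose and 1 fell in JJN3 (41.7% and 8.33%, against 25.5% of all genes in each direction). In INA6, 6 of the 12 rose and 0 fell (background 24.7% higher and 24.0% lower). In each line 6 of the 12 were not called, while limma called 51.0% of all genes in JJN3 and 48.6% in INA6. In INA6 limma gave 0 falls at an unadjusted p below 0.05 too, and 2 of the 12 differences were negative (POLR2H and POLR2K). POLR2A encodes the largest, catalytic subunit with the C-terminal tail that is phosphorylated during transcription. It stood at 10.54, 10.57 and 10.55 in the JJN3 knockdown libraries, against 10.22, 10.27 and 10.24 in the JJN3 controls. In INA6 POLR2A stood at 12.61, 12.71 and 12.59 in knockdown libraries, against 12.21, 12.21 and 12.31 in controls. Every knockdown library was above every control in both lines, and POLR2A rose by 0.31 ± 0.0408 in JJN3 (1.24-fold, adjusted p = 2.58e-07) and by 0.39 ± 0.0437 in INA6 (1.31-fold, adjusted p = 3.2e-07). POLR2B, the second large subunit, which closes the active centre with POLR2A, rose by 0.22 ± 0.0508 in JJN3 (adjusted p = 0.000754) and by 0.22 ± 0.0567 in INA6 (adjusted p = 0.00273). POLR2B overlaps IGFBP7 in the annotation.

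Of the 5 subunits shared with RNA polymerases I and III, POLR2L and POLR2E rose in both lines. POLR2L, a small subunit that helps to assemble all 3 polymerases, stood at 8.33, 8.29 and 8.57 in the JJN3 knockdown libraries, against 7.98, 8.14 and 7.95 in the JJN3 controls. In INA6 POLR2L stood at 9.03, 9.18 and 9.15 in knockdown libraries, against 8.77, 8.55 and 8.47 in controls. The arms did not overlap in either line, with a difference of 0.37 ± 0.0623 in JJN3 (1.3-fold, adjusted p = 1.01e-05) and 0.52 ± 0.0667 in INA6 (1.44-fold, adjusted p = 1.92e-06), the largest rise of the set in each line. Without JJN3 knockdown library 3 its difference there was 0.29, below those of GTF2A1 (0.32) and POLR2A (0.31). POLR2E, a shared subunit in the jaw that holds incoming DNA, stood at 10.62, 10.75 and 10.88 in the JJN3 knockdown libraries, against 10.50, 10.48 and 10.46 in the JJN3 controls. In INA6 POLR2E stood at 10.76, 10.94 and 11.03 in knockdown libraries, against 10.56, 10.57 and 10.45 in controls. Its knockdown libraries were spread more widely than its controls but all lay above them, and it rose by 0.27 ± 0.0486 in JJN3 (adjusted p = 3.31e-05) and by 0.38 ± 0.0566 in INA6 (adjusted p = 1.16e-05). POLR2E overlaps ARHGAP45 in the annotation, and reads of overlapping genes could not be told apart without strand information.

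POLR2K and POLR2J were called in 1 line each, and the test of the difference between lines, given below, passed for both. POLR2K, another small shared subunit, stood at 9.20, 9.25 and 9.16 in the JJN3 knockdown libraries, against 9.44, 9.48 and 9.41 in the JJN3 controls. In INA6 POLR2K stood at 9.71, 9.66 and 9.54 in knockdown libraries, against 9.66, 9.65 and 9.64 in controls. Its arms were apart in JJN3, where it fell by 0.24 ± 0.0457 (adjusted p = 6.92e-05), and overlapped in INA6 (difference −0.01 ± 0.0509, adjusted p = 0.836). POLR2J, which pairs with POLR2C to start the assembly of the enzyme, stood at 5.84, 5.80 and 5.89 in the JJN3 knockdown libraries, against 5.80, 5.80 and 5.91 in the JJN3 controls. In INA6 POLR2J stood at 7.10, 7.13 and 7.20 in knockdown libraries, against 6.92, 6.74 and 6.77 in controls. It rose in INA6 by 0.33 ± 0.066 (adjusted p = 0.000281), and its arms overlapped in JJN3 (difference 0.01 ± 0.0545, adjusted p = 0.919). POLR2J has near-identical copies and overlaps LRWD1. The copy POLR2J4 was tested and not called (−0.04 in JJN3 and −0.02 in INA6), and POLR2J2 and POLR2J3 were below the filter. POLR2D of the stalk rose by 0.11 ± 0.0409 in JJN3 and by 0.19 ± 0.0424 in INA6, and the JJN3 call was lost under quantile normalisation (0.01, adjusted p = 0.867) and without knockdown library 1 or control libraries 1 or 2 (0.09 to 0.10, adjusted p from 0.077 to 0.0968). Its stalk partner POLR2G (−0.05 in JJN3, 0.03 in INA6), POLR2C (0.09 and 0.07), POLR2I (0.04 and 0.08), POLR2F (0.11 and 0.07) and POLR2H (0.03 and −0.02) were not called in either line. POLR2I had low mean levels, 4.40 in JJN3 and 3.55 in INA6, where its arms did not overlap. At such levels the rlog scale can understate a change.

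**Figure D2:**
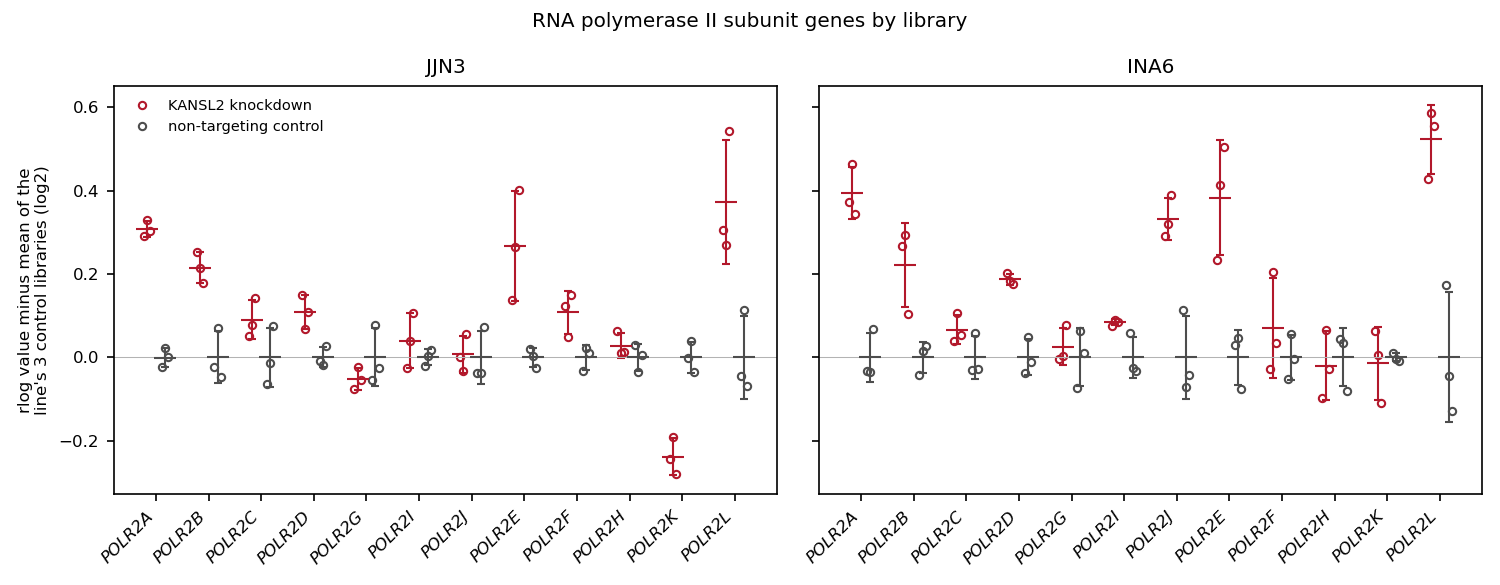
Values of the 12 RNA polymerase II subunit genes in each library (open circles) in JJN3 (left) and INA6 (right), as rlog value minus the mean of the 3 control libraries of that line (y axis, log2), with knockdown libraries left of control libraries for each gene. Horizontal marks are group means and bars are ± 1 SD (n = 3): the means of POLR2A, POLR2B, POLR2D, POLR2E and POLR2L lie above their control means in both lines, that of POLR2K lies below in JJN3, and that of POLR2J lies above in INA6.

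Mediator genes moved in both directions in each line. In JJN3, 5 of its 29 tested genes rose and 8 fell (17.2% and 27.6%, against 25.5% of all genes in each direction). In INA6, 9 of 28 rose and 3 fell (32.1% and 10.7%, against 24.7% and 24.0% of all genes). The median Mediator difference was −0.02 in JJN3, which turned to 0.01 with median centring and to 0.0099 with quantile normalisation, and 0.08 in INA6. In the head, which contacts the polymerase, 1 of 11 genes rose and 5 fell in JJN3 (9.09% and 45.5%). In INA6, 3 head genes rose and 2 fell (27.3% and 18.2%). The 5 falls were 3 under median centring or without JJN3 control library 3, and 6 without JJN3 knockdown library 2. The 1 rise in JJN3 was 2 under median centring and without JJN3 knockdown library 1 or control library 2. The 3 rises in INA6 were 5 under median centring and 2 without INA6 control libraries 1 or 2. The 2 falls in INA6 were 1 under median centring or without INA6 control library 3. They were 3 with no mean-variance trend or without INA6 control library 1. MED17, the central subunit of the head, stood at 8.29, 8.36 and 8.39 in the JJN3 knockdown libraries, against 8.17, 8.10 and 8.13 in the JJN3 controls. In INA6 MED17 stood at 8.94, 8.97 and 8.95 in knockdown libraries, against 8.70, 8.66 and 8.69 in controls. It rose in both lines, by 0.21 ± 0.0513 in JJN3 (adjusted p = 0.000848) and by 0.27 ± 0.0507 in INA6 (adjusted p = 0.000174), with no overlap of the arms.

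The 5 head genes that fell in JJN3 were MED30, MED18, MED20, MED28 and MED11. MED30, a head subunit of animal Mediator that yeast lacks, stood at 7.47, 7.37 and 7.40 in the JJN3 knockdown libraries, against 7.96, 7.90 and 7.85 in the JJN3 controls. In INA6 MED30 stood at 6.71, 6.64 and 6.70 in knockdown libraries, against 6.73, 6.94 and 6.80 in controls. It fell by 0.49 ± 0.0549 in JJN3, to 0.71 of the control level on the linear scale (adjusted p = 1.24e-08), the largest fall of the set in that line. In INA6 the difference was −0.14 ± 0.0662 (adjusted p = 0.0792), with the arms apart, and it was called with no mean-variance trend (−0.14, adjusted p = 0.0492) and without control library 1 (−0.19, adjusted p = 0.0445), while with 1 library left out at a time it ranged between −0.085 and −0.19. MED18 and MED20 form the movable jaw of the head. MED18 stood at 7.88, 7.73 and 7.96 in the JJN3 knockdown libraries, against 8.16, 8.11 and 8.17 in the JJN3 controls. In INA6 MED18 stood at 8.22, 8.27 and 8.23 in knockdown libraries, against 8.47, 8.41 and 8.41 in controls. It was lower in every knockdown library of both lines, with falls of 0.29 ± 0.0569 in JJN3 (adjusted p = 7.83e-05) and 0.19 ± 0.0544 in INA6 (adjusted p = 0.00672). MED20 stood at 8.11, 8.16 and 8.04 in the JJN3 knockdown libraries, against 8.38, 8.27 and 8.44 in the JJN3 controls. In INA6 MED20 stood at 8.85, 8.82 and 8.72 in knockdown libraries, against 8.67, 8.81 and 8.69 in controls. It fell in JJN3 by 0.26 ± 0.0546 (adjusted p = 0.000222), while its arms overlapped in INA6 (0.07 ± 0.0569, adjusted p = 0.289). MED20 overlaps BYSL on the genome.

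MED28, another head subunit of animals, was called in opposite directions. It stood at 9.69, 9.73 and 9.64 in the JJN3 knockdown libraries, against 9.79, 9.79 and 9.86 in the JJN3 controls. In INA6 MED28 stood at 10.15, 10.17 and 10.16 in knockdown libraries, against 9.85, 9.93 and 9.94 in controls. The arms did not overlap in either line, and MED28 fell by 0.12 ± 0.0441 in JJN3 (adjusted p = 0.0186) and rose by 0.26 ± 0.0461 in INA6 (adjusted p = 0.000107). Its JJN3 call was lost under median centring (−0.10, adjusted p = 0.0634) and without knockdown library 3 or control library 3 (−0.10, adjusted p from 0.0598 to 0.0936), and MED28 overlaps FAM184B. MED6, which helps to hold head and middle together, rose by 0.17 ± 0.0559 in INA6, a call that was lost without control libraries 1 or 2 (0.15 to 0.16, adjusted p from 0.0563 to 0.0635). In JJN3 MED6 was at −0.13 ± 0.0597 (adjusted p = 0.0638) and was called without knockdown library 2 (−0.18, adjusted p = 0.0238), while with 1 library left out at a time it ranged between −0.065 and −0.18. MED8, which anchors MED18, fell by 0.14 ± 0.0459 in INA6, lost under median centring (−0.10, adjusted p = 0.0723) and without control library 3 (−0.13, adjusted p = 0.0594), and was at 0.07 in JJN3. MED11, which pairs with MED22 in the head, fell by 0.16 ± 0.0574 in JJN3, a call lost under median centring (−0.13, adjusted p = 0.0512), under quantile normalisation (−0.10, adjusted p = 0.162) and without knockdown library 1 or control libraries 1 or 3 (−0.16 to −0.12, adjusted p from 0.0521 to 0.112), and was at −0.08 in INA6. MED11 overlaps CXCL16. The remaining head genes MED19 (−0.03 in JJN3, 0.06 in INA6), MED22 (0.10 and 0.09) and MED29 (−0.02 and 0.10) were not called.

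In the Mediator middle, which bends between head and tail, 2 of 7 tested genes rose and 1 fell in JJN3 (28.6% and 14.3%, against 25.5% of all genes in each direction). In INA6, 3 rose and 1 fell (42.9% and 14.3%, against 24.7% and 24.0%). MED26, the subunit that docks elongation factors, stood at 9.69, 9.72 and 9.84 in the JJN3 knockdown libraries, against 9.50, 9.60 and 9.62 in the JJN3 controls. In INA6 MED26 stood at 9.87, 9.82 and 9.91 in knockdown libraries, against 9.56, 9.53 and 9.53 in controls. It rose in both lines, by 0.18 ± 0.0478 in JJN3 (adjusted p = 0.00253) and by 0.32 ± 0.0471 in INA6 (adjusted p = 9.29e-06). MED9, a small middle subunit, stood at 8.27, 8.11 and 8.22 in the JJN3 knockdown libraries, against 8.37, 8.45 and 8.43 in the JJN3 controls. In INA6 MED9 stood at 8.75, 8.72 and 8.64 in knockdown libraries, against 8.49, 8.39 and 8.40 in controls. Its knockdown libraries lay below all controls in JJN3, where it fell by 0.21 ± 0.053 (adjusted p = 0.00135), and above all controls in INA6, where it rose by 0.28 ± 0.0554 (adjusted p = 0.000285). MED7, which forms the hinge of the middle with MED21, stood at 8.04, 8.04 and 7.97 in the JJN3 knockdown libraries, against 8.01, 8.02 and 8.07 in the JJN3 controls. In INA6 MED7 stood at 7.28, 7.12 and 7.27 in knockdown libraries, against 7.57, 7.52 and 7.55 in controls. It fell by 0.32 ± 0.0631 in INA6 (adjusted p = 0.000251), the largest fall of the set in that line, and its arms overlapped in JJN3 (−0.02 ± 0.052, adjusted p = 0.824). MED10 rose by 0.22 ± 0.0436 in JJN3 (adjusted p = 0.000135) and was at 0.12 ± 0.052 in INA6 (adjusted p = 0.0708, and 0.0188 with median centring). MED1, which binds nuclear receptors, rose by 0.15 ± 0.0484 in INA6, a call lost under quantile normalisation (0.07, adjusted p = 0.21) and without knockdown library 2 or control library 1 (0.10 to 0.14, adjusted p from 0.0632 to 0.129), and was at 0.05 in JJN3. MED4 (−0.05 in JJN3, 0.07 in INA6) and MED21 (−0.01 and 0.02) were not called, nor was the scaffold MED14 that joins the modules (−0.04 and −0.10).

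The tail receives activators, and 2 of its 6 genes fell in JJN3 (33.3%, against 25.5% of all genes). In INA6, 1 of the 6 rose (16.7%, against 24.7% of all genes). MED23, a target of growth factor signalling through ELK factors, stood at 6.58, 6.70 and 6.60 in the JJN3 knockdown libraries, against 6.99, 6.96 and 6.80 in the JJN3 controls. In INA6 MED23 stood at 7.38, 7.24 and 7.34 in knockdown libraries, against 7.44, 7.38 and 7.45 in controls. It fell by 0.29 ± 0.06 in JJN3 (adjusted p = 0.000188), and in INA6 the difference was −0.10 ± 0.0621 (adjusted p = 0.17). MED23 overlaps ARG1. MED24, its neighbour in the tail, fell by 0.21 ± 0.0486 in JJN3 (adjusted p = 0.000559) and was at 0.10 ± 0.0522 in INA6 (adjusted p = 0.13), where it was called higher under median centring (0.13, adjusted p = 0.0369) and without knockdown library 1 (0.13, adjusted p = 0.0496), while with 1 library left out at a time it ranged between 0.05 and 0.13. MED16 rose in INA6 by 0.21 ± 0.0558 (adjusted p = 0.00378) and was at −0.01 in JJN3. MED15 (0.0035 in JJN3, 0.05 in INA6), MED25 (0.05 and 0.04) and MED27 (−0.0033 and 0.10) were not called.

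In the kinase module, which docks on Mediator reversibly, 2 of 4 tested genes rose in JJN3 (against 25.5% of all genes). In INA6, 2 of 3 rose (against 24.7% of all genes). The 2 rises in JJN3 were 1 with no filter on low values or with no mean-variance trend. They were also 1 without JJN3 knockdown libraries 1 or 2 or control libraries 1 or 3. The 2 rises in INA6 were 1 without INA6 knockdown libraries 2 or 3 or control libraries 1 or 3. MED13L, a paralog of the linker subunit MED13, stood at 10.85, 10.86 and 10.79 in the JJN3 knockdown libraries, against 10.53, 10.58 and 10.61 in the JJN3 controls. In INA6 MED13L stood at 10.50, 10.42 and 10.40 in knockdown libraries, against 10.22, 10.31 and 10.26 in controls. It rose in both lines, by 0.26 ± 0.0414 in JJN3 (adjusted p = 4.92e-06) and by 0.17 ± 0.0464 in INA6 (adjusted p = 0.00379). MED13 rose by 0.12 ± 0.0463 in JJN3 although its arms overlapped there, and the call was lost under quantile normalisation (0.06, adjusted p = 0.325), with no filter on low values (0.12, adjusted p = 0.058), with no mean-variance trend (0.12, adjusted p = 0.0521) and without knockdown libraries 1 or 2 or control libraries 1 or 3 (0.09 to 0.13, adjusted p from 0.0524 to 0.15). In INA6 MED13 was at 0.02. MED12, which activates the module's kinase, rose by 0.18 ± 0.0608 in INA6, a call lost without knockdown libraries 2 or 3 or control libraries 1 or 3 (0.15 to 0.17, adjusted p from 0.0561 to 0.0898), and was at −0.08 in JJN3. MED12L was at 0.07 in JJN3, where quantile normalisation gave a call (0.11, adjusted p = 0.0431). Of the enzyme part of the module, CDK8, CDK19 and cyclin C, only CDK19 was called, named here after its value was seen: it fell by 0.30 ± 0.0552 in JJN3 (adjusted p = 3.97e-05) and by 0.36 ± 0.0629 in INA6 (adjusted p = 7.26e-05).

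In TFIID, 2 of 15 tested genes, paralogs included, rose and 4 fell in JJN3 (13.3% and 26.7%, against 25.5% of all genes in each direction). In INA6, 2 rose and 0 fell (13.3% called, against 48.6% of all genes). In INA6 limma gave 0 falls at an unadjusted p below 0.05 too, and 4 of the 15 differences were negative. The 2 rises in JJN3 were 1 without knockdown library 2 or control library 2. In INA6 they were 1 under quantile normalisation and without knockdown library 2 or any control library, and 1 gene fell without knockdown library 1. Its median difference was −0.04 in JJN3, which turned to 0.01 with quantile normalisation, and 0.03 in INA6. TAF8, which pairs with TAF10 by a histone fold, stood at 8.58, 8.58 and 8.52 in the JJN3 knockdown libraries, against 8.91, 8.93 and 8.83 in the JJN3 controls. In INA6 TAF8 stood at 8.72, 8.67 and 8.65 in knockdown libraries, against 8.75, 8.67 and 8.67 in controls. The arms were apart in JJN3, where TAF8 fell by 0.33 ± 0.0489 (adjusted p = 1.78e-06), and overlapped in INA6 (−0.02 ± 0.0531, adjusted p = 0.826). TAF11, whose histone fold pairs with TAF13, stood at 9.06, 9.11 and 9.07 in the JJN3 knockdown libraries, against 9.33, 9.26 and 9.36 in the JJN3 controls. In INA6 TAF11 stood at 9.19, 9.11 and 9.11 in knockdown libraries, against 9.10, 9.10 and 9.18 in controls. It fell by 0.24 ± 0.046 in JJN3 (adjusted p = 7.1e-05), where its partner TAF13 rose by 0.18 ± 0.0585, and in INA6 TAF11 was at 0.01 and TAF13 at 0.02. The TAF13 call was lost without knockdown library 2 or control library 2 (0.13 to 0.16, adjusted p from 0.0537 to 0.093). TAF11 overlaps BLTP3A. TAF7, which binds TAF1 and restrains its activity, rose by 0.16 ± 0.0408 in JJN3 (adjusted p = 0.00178, lost under quantile normalisation (0.05, adjusted p = 0.344)) and was at 0.05 in INA6. TAF3, which reads a methylated histone tail, rose by 0.16 ± 0.0537 in INA6, a call lost without knockdown library 2 or control libraries 1 or 2 (0.13 to 0.14, adjusted p from 0.0772 to 0.0893), and was at −0.01 in JJN3.

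Of 3 tested paralogs of TFIID subunits, 2 fell in JJN3 (66.7%, against 25.5% of all genes) and 1 rose in INA6 (33.3%, against 24.7%). TAF4B, a tissue-restricted relative of TAF4, stood at 10.48, 10.49 and 10.44 in the JJN3 knockdown libraries, against 10.66, 10.73 and 10.64 in the JJN3 controls. In INA6 TAF4B stood at 10.71, 10.66 and 10.68 in knockdown libraries, against 10.55, 10.59 and 10.51 in controls. It fell by 0.21 ± 0.0413 in JJN3 (adjusted p = 0.000105) and rose by 0.13 ± 0.0435 in INA6 (adjusted p = 0.0151), and the INA6 call was lost under quantile normalisation (0.09, adjusted p = 0.0951) and without control library 3 (0.11, adjusted p = 0.0776). TAF4 was not called in either line (−0.02 in JJN3, 0.09 in INA6). TAF9B, a relative of the untested TAF9, fell by 0.24 ± 0.0555 in JJN3 (adjusted p = 0.000733) and was at −0.08 ± 0.0573 in INA6 (adjusted p = 0.268), where it was called without knockdown library 1 (−0.14, adjusted p = 0.0314), while with 1 library left out at a time it ranged between −0.03 and −0.14. TAF1, the largest subunit, was at −0.10 in JJN3 and −0.08 in INA6, and its intronless copy TAF1L at 0.04 and 0.05, none of them called. The other TFIID genes that were not called were TAF2 (−0.06 in JJN3, 0.01 in INA6), TAF5 (−0.04 and 0.03), TAF6 (−0.09 and 0.07), TAF10 (0.10 and 0.16) and TAF12 (0.12 and −0.03).

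Among the TAFs outside TFIID, 2 of 6 tested genes rose in JJN3 (33.3%, against 25.5% of all genes) and 4 of 6 in INA6 (66.7%, against 24.7%). The SL1 subunits TAF1C and TAF1D, which recruit RNA polymerase I to ribosomal DNA, rose in both lines. TAF1D stood at 9.38, 9.36 and 9.32 in the JJN3 knockdown libraries, against 9.14, 9.11 and 9.09 in the JJN3 controls. In INA6 TAF1D stood at 10.10, 10.06 and 10.06 in knockdown libraries, against 9.78, 9.76 and 9.84 in controls. The rise of TAF1D was 0.24 ± 0.0453 in JJN3 (adjusted p = 5.65e-05) and 0.28 ± 0.0461 in INA6 (adjusted p = 4.06e-05) with no overlap of the arms. TAF1C stood at 10.26, 10.39 and 10.41 in the JJN3 knockdown libraries, against 10.12, 10.11 and 10.06 in the JJN3 controls. In INA6 TAF1C stood at 10.38, 10.44 and 10.54 in knockdown libraries, against 10.30, 10.26 and 10.24 in controls. The rise of TAF1C was 0.25 ± 0.0445 in JJN3 (adjusted p = 2.03e-05) and 0.19 ± 0.048 in INA6 (adjusted p = 0.00295). TAF1D overlaps CEP295 and hosts small nucleolar RNAs, and TAF1C overlaps DNAAF1. The other SL1 subunits TAF1A (−0.05 in JJN3, −0.03 in INA6) and TAF1B (0.11 and −0.04) were not called. TAF1A had low mean levels, 3.33 in JJN3 and 4.42 in INA6, where the rlog scale can understate a change.

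Both SAGA relatives of TFIID subunits rose in INA6, and in JJN3 limma called 0 of these (1 at an unadjusted p below 0.05, TAF5L). TAF6L stood at 8.38, 8.53 and 8.56 in the JJN3 knockdown libraries, against 8.67, 8.55 and 8.57 in the JJN3 controls. In INA6 TAF6L stood at 8.55, 8.81 and 8.91 in knockdown libraries, against 8.41, 8.43 and 8.34 in controls. Its INA6 knockdown libraries were spread more widely than the controls but lay above all of them, and it rose there by 0.37 ± 0.0704 (adjusted p = 0.000202). In JJN3 its arms overlapped (−0.11 ± 0.0539, adjusted p = 0.0944), and it was called lower without knockdown library 3 (−0.14, adjusted p = 0.0405), while with 1 library left out at a time it ranged between −0.051 and −0.14. TAF6L overlaps TMEM223. TAF5L stood at 9.31, 9.22 and 9.20 in the JJN3 knockdown libraries, against 9.12, 9.14 and 9.14 in the JJN3 controls. In INA6 TAF5L stood at 10.07, 10.12 and 10.05 in knockdown libraries, against 9.77, 9.78 and 9.74 in controls. It rose by 0.31 ± 0.0457 in INA6 (adjusted p = 9.93e-06), and in JJN3 it was at 0.11 ± 0.0462 (adjusted p = 0.0573) and was called under median centring (0.13, adjusted p = 0.0176) and without knockdown library 3 (0.13, adjusted p = 0.0305), while with 1 library left out at a time it ranged between 0.073 and 0.13. Their TFIID counterparts TAF5 and TAF6 were not called in either line.

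Among the general factors, 3 of 10 tested genes rose and 4 fell in JJN3 (30.0% and 40.0%, against 25.5% of all genes in each direction). In INA6, 3 rose (30.0%, against 24.7% of all genes) and 0 fell (background 24.0%). In INA6 limma gave 0 falls at an unadjusted p below 0.05 too, and 2 of the 10 differences were negative. The 4 falls in JJN3 were 2 under median centring, under quantile normalisation and without knockdown library 2 or control libraries 2 or 3. The 3 rises in INA6 were 1 without control library 2 and 5 under median centring. The median difference was −0.04 in JJN3 and 0.08 in INA6. GTF2A1, the large subunit of TFIIA, which steadies TBP on DNA, stood at 10.01, 9.99 and 9.87 in the JJN3 knockdown libraries, against 9.71, 9.65 and 9.67 in the JJN3 controls. In INA6 GTF2A1 stood at 11.23, 11.10 and 11.00 in knockdown libraries, against 10.96, 10.84 and 11.03 in controls. The arms were apart in JJN3 and overlapped in INA6, and it rose by 0.28 ± 0.0454 in JJN3 (adjusted p = 7.85e-06) and by 0.17 ± 0.0559 in INA6 (adjusted p = 0.0152). The INA6 call was lost under quantile normalisation (0.10, adjusted p = 0.148) and without knockdown library 1 or control library 2 (0.11 to 0.12, adjusted p from 0.0815 to 0.135). GTF2A2, the small TFIIA subunit, was at 0.06 in JJN3 and rose by 0.19 ± 0.0591 in INA6 (adjusted p = 0.0123). GTF2B, which is TFIIB and bridges TBP and the polymerase, stood at 7.89, 7.83 and 7.87 in the JJN3 knockdown libraries, against 7.63, 7.76 and 7.66 in the JJN3 controls. In INA6 GTF2B stood at 8.74, 8.78 and 8.66 in knockdown libraries, against 8.65, 8.47 and 8.55 in controls. It rose by 0.18 ± 0.0545 in JJN3 (adjusted p = 0.00623) and by 0.17 ± 0.0581 in INA6, where the call was lost without knockdown library 2 or control libraries 2 or 3 (0.13 to 0.17, adjusted p from 0.0523 to 0.123).

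Both TFIIE genes and 1 of the 2 TFIIF genes fell in JJN3. GTF2E1, the large TFIIE subunit, which recruits TFIIH, stood at 8.64, 8.63 and 8.62 in the JJN3 knockdown libraries, against 8.79, 8.73 and 8.92 in the JJN3 controls. In INA6 GTF2E1 stood at 9.12, 9.18 and 9.08 in knockdown libraries, against 9.05, 9.04 and 9.11 in controls. It fell by 0.19 ± 0.0513 in JJN3 (adjusted p = 0.00283) and its arms overlapped in INA6 (0.06 ± 0.0514, adjusted p = 0.322). GTF2E2, the small TFIIE subunit, fell by 0.16 ± 0.0566 in JJN3 and was at −0.03 in INA6. Its JJN3 call was lost under median centring (−0.13, adjusted p = 0.0549) and under quantile normalisation (−0.11, adjusted p = 0.127). It was also lost without knockdown library 2 or control libraries 2 or 3 (−0.14 to −0.12, adjusted p from 0.0842 to 0.124). GTF2E2 overlaps SMIM18. GTF2F1 of TFIIF, which escorts the polymerase to the promoter, fell by 0.15 ± 0.0471 in JJN3, a call lost without control library 3 (−0.11, adjusted p = 0.0718), and was at 0.06 in INA6. GTF2F2, its partner, was not called (−0.12 in JJN3, 0.02 in INA6). Of the TFIIH core, GTF2H3 rose by 0.13 ± 0.0458 in JJN3, a call lost without knockdown library 2 or control library 3 (0.12, adjusted p from 0.0577 to 0.084), and was at 0.11 in INA6, where it was called under median centring (0.14, adjusted p = 0.0176) and without knockdown library 3 (0.13, adjusted p = 0.0373), while with 1 library left out at a time it ranged between 0.085 and 0.13. GTF2H5 fell by 0.14 ± 0.0572 in JJN3, a call lost under median centring (−0.11, adjusted p = 0.093), under quantile normalisation (−0.08, adjusted p = 0.227) and without knockdown libraries 2 or 3 or control libraries 2 or 3 (−0.15 to −0.11, adjusted p from 0.0584 to 0.165), and was at −0.03 in INA6. GTF2H1 was not called (0.03 in JJN3, 0.10 in INA6).

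The lines were set side by side over the 71 genes tested in both. Of these, 12 were called higher in both lines (16.9%, against 14.2% of the 11137 genes tested in both), namely POLR2A, POLR2B, POLR2D, POLR2E, POLR2L, MED13L, MED17, MED26, TAF1C, TAF1D, GTF2A1 and GTF2B. MED18 was called lower in both (1.41%, against 12.3%), and MED30 was called lower in both with no mean-variance trend or without INA6 control library 1. MED9, MED28 and TAF4B were called lower in JJN3 and higher in INA6 (4.23%, against 1.52%), and limma called 0 higher in JJN3 and lower in INA6 (background 2.39%, and 0 at an unadjusted p below 0.05 in both lines). A further 13 genes were lower in JJN3 without a call in INA6 (18.3%, against 11.8%), and 5 were higher (7.04%, against 9.4%). In INA6, 9 were higher without a call in JJN3 (12.7%, against 10.7%), and 2 were lower (2.82%, against 8.79%). The other 26 were called in neither line (36.6%, against 28.9%). The sign was shared by 43 of the 71 genes (60.6%, against 69.2% of all genes). Across genes, as a description, Pearson's r between the differences of the 2 lines was 0.52 for the set (n = 71) and 0.49 for all 11137 genes. It was 0.80 over the 12 polymerase subunits, 0.82 over 10 general factor genes, 0.37 over 28 Mediator genes, 0.28 over 15 TFIID genes and 0.039 over the 6 other TAFs. Genes of 1 library share its depth and composition and are not independent replicates.

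**Figure D3:**
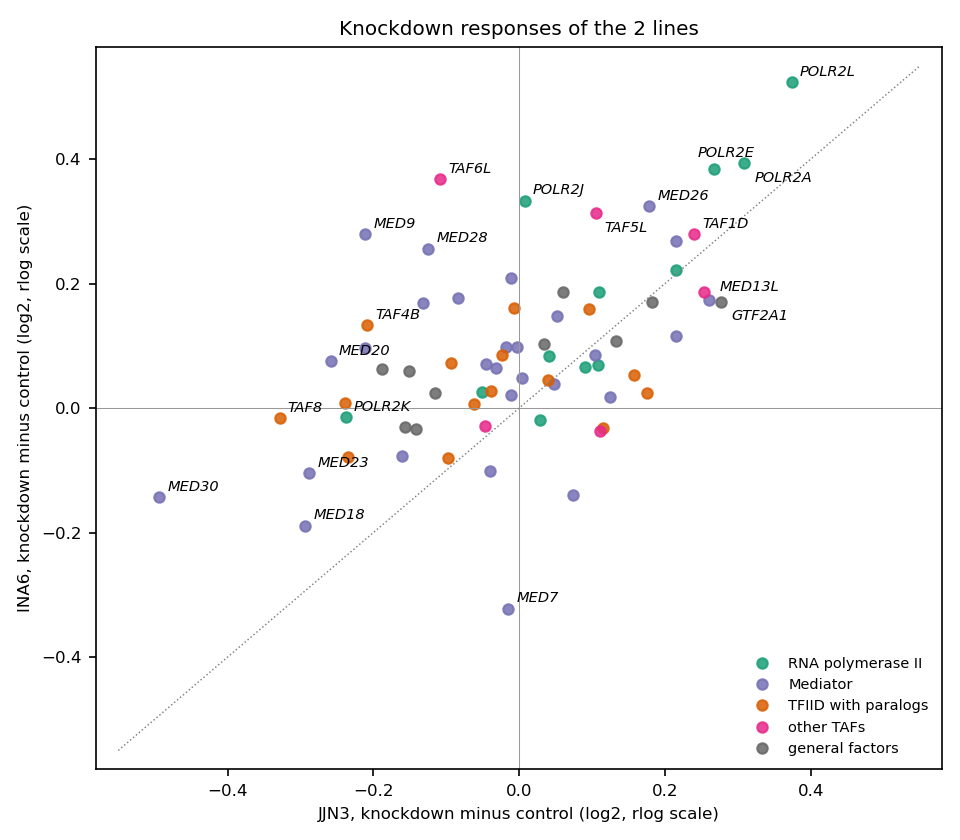
Knockdown minus control in JJN3 (x axis) against INA6 (y axis), both as log2 differences on the rlog scale, for the 71 genes tested in both lines, coloured by complex, with the line of equal differences dotted. Polymerase genes such as POLR2L, POLR2A and POLR2E lie in the upper right, MED18, MED23 and MED30 in the lower left, and MED9, MED28, TAF6L and TAF4B lie left of 0 in JJN3 and above 0 in INA6.

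The difference between the lines was itself tested, as the JJN3 difference minus the INA6 difference, for all 11137 genes. Of the 71 genes 19 passed (26.8%, against 30.0% of all genes). Of the 19, the JJN3 difference was the lower in 17 and the higher in 2. Over all genes 3342 passed, 1733 with the lower JJN3 difference and 1609 with the higher (15.6% and 14.4% of the 11137 tested). The median over the set was −0.08, against −0.02 over all genes. MED9 had the largest gap, at −0.49 ± 0.0767 (adjusted p = 1.3e-06), followed by TAF6L at −0.48 ± 0.0886 (adjusted p = 3.22e-05) and MED28 at −0.38 ± 0.0638 (adjusted p = 5.09e-06). Mediator supplied 10 of the 19 (35.7% of its 28 tested genes, against 30.0% of all genes), and the 2 genes with a higher difference in JJN3, MED7 at 0.31 ± 0.0818 (adjusted p = 0.00304) and MED8 at 0.21 ± 0.0695 (adjusted p = 0.0158), are also Mediator genes. Polymerase genes supplied 2, POLR2J at −0.33 ± 0.0856 (adjusted p = 0.00265) and POLR2K at −0.22 ± 0.0684 (adjusted p = 0.00991). POLR2A did not pass (−0.08 ± 0.0598, adjusted p = 0.293). KANSL2 itself fell by 0.82 more in JJN3 than in INA6, and the part of this unequal knockdown in the gaps was not tested.

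**Figure D4:**
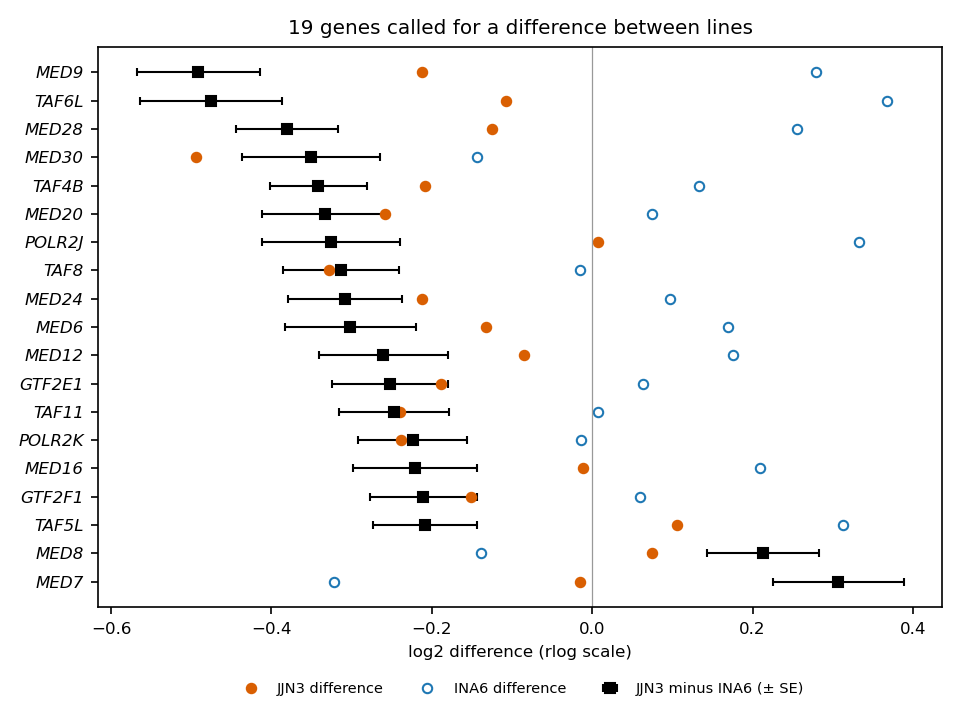
The 19 genes (y axis) whose knockdown response passed the test for a difference between the lines, with the JJN3 difference (filled circles), the INA6 difference (open circles) and JJN3 minus INA6 with its SE (squares), all in log2 units of the rlog scale (x axis). The squares of 17 genes lie left of 0, from −0.49 for MED9 to −0.21 for TAF5L, and those of MED8 (0.21) and MED7 (0.31) lie right of 0.

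**Figure D5:**
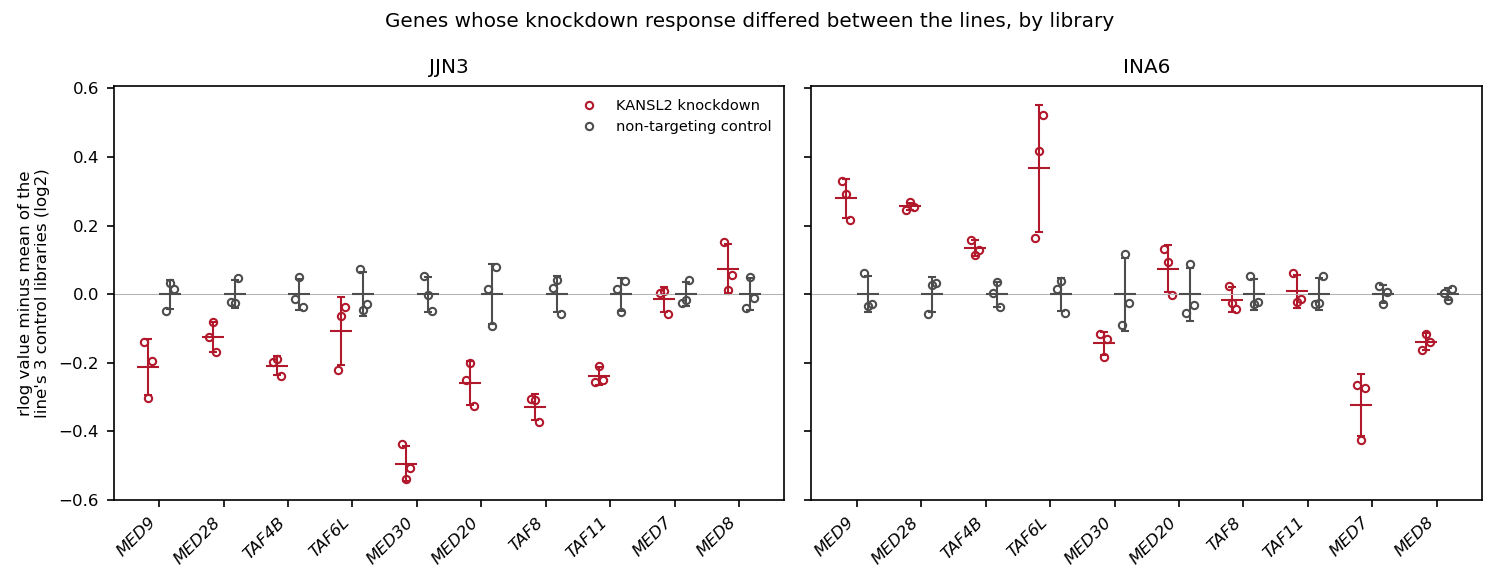
Values of 10 genes with a called difference between the lines in each library (open circles) in JJN3 (left) and INA6 (right), as rlog value minus the mean of the line's 3 control libraries (y axis, log2), knockdown left of control, with group means and ± 1 SD (n = 3). MED9, MED28 and TAF4B lie below their controls in JJN3 and above them in INA6, and MED30, MED20, TAF8 and TAF11 lie below their controls in JJN3.

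Partners of the machinery were listed apart from the set: 61 genes of the TBP family, TFIIH, the Mediator kinase, polymerase II assembly and tail turnover, SAGA, and RNA polymerases I and III, of which 59 were tested in each line. In JJN3 15 rose and 10 fell (25.4% and 16.9%, against 25.5% of all genes in each direction). In INA6 22 rose and 11 fell (37.3% and 18.6%, against 24.7% and 24.0%), and the 11 falls were 7 under median centring, with the replicate block and without control libraries 2 or 3. Subunits with POLR1 names include POLR1C and POLR1D of both polymerases I and III. Of the 7 tested, 5 were higher and 1 lower in JJN3 (71.4% and 14.3%, against 25.5% of all genes in each direction). In INA6, 5 were higher (71.4%, against 24.7% of all genes), and 1 difference was negative. The fall in JJN3 was that of POLR1D, and the alternatives gave 0 falls (among them without knockdown library 2 or control library 3) to 2 falls. POLR1A, the catalytic subunit of polymerase I, rose by 0.40 ± 0.0422 in JJN3 (adjusted p = 5.69e-09) and by 0.35 ± 0.0442 in INA6 (adjusted p = 1.56e-06), and POLR1C by 0.42 ± 0.0518 (adjusted p = 6.83e-08) and 0.29 ± 0.0537 (adjusted p = 0.000142). Of 10 RNA polymerase III genes 3 rose and 2 fell in JJN3 (against 25.5% of all genes in each direction). In INA6, 6 of the 10 rose and 2 fell (against 24.7% and 24.0% of all genes). Over the alternatives the JJN3 counts ran from 2 to 6 rises, the most under median centring, and from 1 to 3 falls, the fewest without knockdown library 3. In INA6 they ran from 3 rises without knockdown library 2 to 7 under median centring, with 4 rises and 1 fall under the replicate block. The 2 falls in INA6 were also 1 without knockdown libraries 1 or 2 or control libraries 2 or 3. POLR3GL, 1 of a pair of alternative subunits with POLR3G, fell by 0.53 ± 0.058 in JJN3 (adjusted p = 8.39e-09) and by 0.57 ± 0.0583 in INA6 (adjusted p = 1.05e-07), while POLR3G rose by 0.12 and 0.23. The JJN3 call of POLR3G was lost under quantile normalisation (0.10, adjusted p = 0.0901), with no filter on low values (0.12, adjusted p = 0.0596) and without knockdown libraries 1 or 2 or control libraries 1, 2 or 3 (0.08 to 0.13, adjusted p from 0.0547 to 0.18).

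SAGA, which shares TAF9, TAF10 and TAF12 with TFIID in addition to its own TAF5L and TAF6L, had 4 of 14 other genes higher and 3 lower in JJN3, and 7 higher and 4 lower in INA6. The 4 higher in JJN3 were 2 under quantile normalisation and without knockdown library 2 or control library 2, and in INA6 4 were higher without control library 2 and 2 lower without control library 3. KAT2B, 1 of its alternative acetyltransferases, rose by 0.12 ± 0.0494 in JJN3 (adjusted p = 0.0356) and fell by 0.52 ± 0.0609 in INA6 (adjusted p = 5.91e-07), a gap between the lines of 0.65 ± 0.0785 (adjusted p = 3.19e-09). Its JJN3 call was lost under quantile normalisation (0.11, adjusted p = 0.066), with no filter on low values (0.12, adjusted p = 0.059) and without knockdown libraries 1 or 2 or control libraries 1 or 2 (0.09 to 0.12, adjusted p from 0.0797 to 0.137). SUPT3H, a histone-fold subunit of SAGA, fell by 0.17 ± 0.0506 in JJN3 (adjusted p = 0.00714, lost under quantile normalisation (−0.10, adjusted p = 0.0955)) and by 0.47 ± 0.0617 in INA6 (adjusted p = 2.67e-06). In the TBP family limma called 0 of 5 genes in JJN3 (0 at an unadjusted p below 0.05), and 1 rose and 1 fell in INA6. Median centring gave 1 rise in JJN3, and quantile normalisation 2 rises in INA6. Of 4 tested TFIIH genes outside the GTF2H names limma called 0 in JJN3 (against 51.0% of all genes). There 0 passed at an unadjusted p below 0.05, and 1 was higher under median centring or quantile normalisation. In INA6, 1 fell (25.0%, against 24.0% of all genes). That gene, MNAT1, named after its value was seen, lost its call under median centring (−0.13, adjusted p = 0.0972), under quantile normalisation (−0.12, adjusted p = 0.131), with the replicate block (−0.16, adjusted p = 0.0505) and without knockdown libraries 1 or 3 or control libraries 1 or 2 (−0.17 to −0.14, adjusted p from 0.07 to 0.116). Of 16 genes of polymerase II assembly and tail turnover 3 rose and 3 fell in JJN3 (18.8% in each direction, against 25.5% of all genes). In INA6, 3 rose and 2 fell (18.8% and 12.5%, against 24.7% and 24.0%). In JJN3 5 rose without knockdown library 1, and 1 fell under median centring, with no filter on low values and without knockdown library 2 or control libraries 2 or 3. In INA6 1 rose and 1 fell with the replicate block, with no filter on low values and without control library 1, and 7 rose under median centring. The 2 falls there were also 1 without knockdown libraries 2 or 3 or control libraries 2 or 3.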

How the data were processed

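Per the labels' protocols, RNA of JJN3 and INA6 cells was enriched for poly(A) tails on oligo-dT beads before random-primed cDNA synthesis. The tools named per the submitters' processing notes are DESeq2, HTSeq, Bowtie2 and Trim Galore, and the build is hg38. Versions, the annotation and use of strand are not given in the sources used here, so overlapping genes and near-identical copies are uncertain. In the annotation 23 of the 78 genes overlap a protein-coding gene (10 of these were called in JJN3 and 7 in INA6). Among the 23, MED31 and TAF9 were untested in both lines and MED12L in INA6. The whole set had 34 of 72 tested genes called in JJN3 and 27 of 71 in INA6 (47.2% and 38.0%, against 51.0% and 48.6% of all genes). The authors deposited 1 table of rlog values (log2 scale) per line, normalised separately, each with 6 libraries. Depth is unknown, so no counting interval was computed, and the 4 accessibility libraries of JJN3 were not used here.

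Titles gave the groups. limma 3.58.1 in R 4.3.3 (lmFit, eBayes with a mean-variance trend) was fitted per line, without a block, to every gene whose mean over the line's 6 libraries reached 3. Calls needed a Benjamini-Hochberg adjusted p under 0.05. The p-values are two-sided and come from these fits or from the test between lines. That test set the JJN3 difference minus the INA6 difference against the combined standard error of both (squares added), took the degrees of freedom of both fits together, and was adjusted over 11137 genes. Nothing says whether replicates came from separate cultures, so the p-values cover only how these libraries vary, which may be technical. With 3 against 3 libraries an exact permutation test cannot go below 0.1, so none was used. Alternatives were median centring, quantile normalisation, other low-value filters, no trend, a block for the replicate number, and each library left out in turn.

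The genes, complexes and partner lists were chosen with earlier results of these data known. Named in full were KANSL2, POLR2A, up to 4 called genes per line, complex and direction with the largest change, paralog pairs, genes called for a difference between lines, untested genes and up to 4 partner genes per line with the smallest p, of which 1 is not reported here. Other genes are given as members of their subunit group. The partner genes POLR1F, POLR1G and POLR1H stand under older symbols in the tables. Promoters come from RefSeq on GRCh38.p14, where 60 of 78 genes matched.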

Additional observations from a re-analysis of the deposited data

Results flagged for a closer look

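The knockdown response of 19 genes differed between the lines by the test of the difference itself, and each value below is the JJN3 difference minus the INA6 difference on the log2 scale. In 17 genes the JJN3 response was the lower, while over all genes this held for 1733 of the 3342 that passed. The Mediator genes among the 17 were MED9 (−0.49), MED28 (−0.38), MED30 (−0.35), MED20 (−0.33), MED24 (−0.31), MED6 (−0.30), MED12 (−0.26) and MED16 (−0.22). Among TAFs they were TAF6L (−0.48), TAF4B (−0.34), TAF8 (−0.31), TAF11 (−0.25) and TAF5L (−0.21). The polymerase subunits were POLR2J (−0.33) and POLR2K (−0.22), and the general factors were GTF2E1 (−0.25) and GTF2F1 (−0.21). The JJN3 response was the higher for MED7 (0.31) and MED8 (0.21). These 19 are 26.8% of the 71 genes tested in both lines, against 30.0% of all genes.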

How the results depend on the processing

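The counts of calls over all genes, over the whole set and between lines kept their size within 1.5 times, and no gene named in the text above changed the direction of a call, under median centring, quantile normalisation, no filter on low values, a minimum mean of 5, no mean-variance trend, the replicate block and leaving out each library. Without 1 library at a time, 14 to 18 genes of the set rose and 13 to 17 fell in JJN3, 20 to 25 rose and 2 to 4 fell in INA6, and 17 to 22 passed the test between lines. Counts for parts of the set were smaller and less stable: 6 of 20 counts for complexes, 20 of 68 for subunit groups and 17 of 32 for partner lists moved by over 1.5 times in at least 1 alternative. In all of these alternatives 24 of the 34 genes called in JJN3, 19 of the 27 called in INA6 and 16 of the 19 called between lines kept their call. The exceptions between lines were GTF2F1, lost without INA6 control library 2 (−0.18, adjusted p = 0.0577) and JJN3 control library 3 (−0.17, adjusted p = 0.058), MED8, lost without JJN3 knockdown library 1 (0.17, adjusted p = 0.0576) and JJN3 control library 1 (0.19, adjusted p = 0.0504), and MED16, lost under quantile normalisation (−0.18, adjusted p = 0.0695) and without any of 5 libraries (−0.21 to −0.17, adjusted p from 0.0551 to 0.095). The labels do not say whether same-numbered libraries were prepared together. Deviations from the group means of same-numbered libraries of the 2 arms had correlations of −0.01 to 0.0045 in JJN3 and −0.30 to −0.07 in INA6. For differently numbered libraries these were −0.056 to 0.064 in JJN3 and −0.069 to 0.24 in INA6, the highest for knockdown library 1 with control library 3. Such values cannot show how the libraries were prepared, and a replicate block does not cover sharing under other numbers. With the replicate block 17 genes of the set rose and 17 fell in JJN3, 24 rose and 3 fell in INA6, 19 passed between lines, and over all genes 3113 rose and 3092 fell in JJN3 and 2811 rose and 2815 fell in INA6. The unknown depth limits the precision of genes with low values. Among the partner genes, CTDSP2 was not called in JJN3 (0.03, adjusted p = 0.481) and was called lower under quantile normalisation (−0.084, adjusted p = 0.0438).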

Other observations

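There are 4 pairs of genes of the set that lie within 200 kb of each other on GRCh38.p14. MED17 (chr11:93784282-93814963) and TAF1D (chr11:93730194-93741495), a Mediator head gene and an SL1 gene 42.8 kb apart, rose in both lines. MED20 (chr6:41905354-41921139) and TAF8 (chr6:42050524-42087462), 129 kb apart, both fell in JJN3 and were not called in INA6. MED16 (chr19:867963-893187) and POLR2E (chr19:1086574-1095375), 193 kb apart, both rose in INA6, and in JJN3 POLR2E rose while MED16 was not called. POLR2G (chr11:62761580-62766710) and TAF6L (chr11:62771396-62787342), 4.69 kb apart, differed in INA6, where TAF6L was called and POLR2G was not, and neither was called in JJN3. With this few pairs no test was made.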
